A study of Mus musculus with 13 samples.

Results

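Basement membranes are thin sheets of matrix that line epithelia, vessels and fat cells and that also occur around bone marrow sinusoids. Described here are 10 genes that build, link or cut them, chosen by symbol from the 22997 genes of a deposited table of raw read counts. They encode 4 laminin chains (Lamb1, Lamb2, Lamc1 and Lama5), the heparan sulphate proteoglycans perlecan (Hspg2) and agrin (Agrn), the linker nidogen-1 (Nid1), 2 collagen IV chains (Col4a1 and Col4a2) and heparanase (Hpse), the enzyme that cuts heparan sulphate. The group was proposed with results of these libraries in view, and Lamb1 had been singled out for its difference between VQ and WT. Differences from WT in VQ are therefore given as descriptions, with no test. All 10 genes passed the filter on low counts.

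Laminins are trimers of an alpha, a beta and a gamma chain that are assembled in the endoplasmic reticulum before secretion. They polymerise on the cell surface, bind integrins and dystroglycan, and are tied to the collagen IV network by nidogen, perlecan and agrin. Heparanase trims the heparan sulphate chains of perlecan and of cell surface proteoglycans such as syndecan-1 (CD138), the protein by which plasma cells are sorted, and it is well known in myeloma, the cancer of plasma cells.

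The study profiled normal plasma cells and mouse models of myeloma by bulk RNA sequencing, with the strain labelled C57/BL6 throughout. Each of the 13 libraries came from 50000 bone marrow cells sorted as B220-, CD138+ and CD45.2+. WT stands for 3 wild-type libraries. V stands for 3 libraries of mice with the V{kappa}*MYC transgene and the IgG1-Cre allele, by which Cre recombinase is expressed from the IgG1 locus. VQ stands for 5 libraries of recipients of cells with both of these and the allele Nras LSL Q61R/+, a mutant Nras that Cre switches on. The recipients carried 1 of 3 lines, named D1 (2 recipients), D4 (1 recipient) and D5 (2 recipients). tVk12653 was 2 libraries of recipients of a single transplantable line, whose alleles the labels do not list. Only VQ and tVk12653 are labelled as cells of recipients, so an effect of transplantation cannot be told apart from one of genotype when they are set against WT or V. Recipients of 1 line are repeats of that line and not separate tumours.

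Total counts ran from 2096815 to 8512281 per library. Levels are given as CPM, the read count of a gene relative to the total of its library, scaled by trimmed means of M values (TMM), and a floor of 3 counts corresponds to 0.326 to 1.49 CPM. All 7 plasma cell marker genes were read in every group, with summed levels of 38367 to 71287 CPM in WT, 42145 to 62843 CPM in V and 4990 to 12460 CPM in VQ and tVk12653. Jchain made up most of the sums of WT and V, with means of 45200 and 43814 CPM against 44.5 to 5374.5 CPM in the transplanted lines. Group means of Irf4 were 1383 CPM in WT, 1841 CPM in V and 1526 to 2413.5 CPM in those lines. For Xbp1 they were 2741, 2949 and 1426 to 3385 CPM. Ptprc, which encodes CD45, was at 506 CPM or more in WT and V and at 183 to 273 CPM in tVk12653 and D1. It was at 1.68 to 6.63 CPM in the 3 libraries of D4 and D5, so RNA of the gated CD45 was low in D4 and D5. Summed neutrophil markers were 3331 to 9028 CPM in WT, 1814 to 3621 CPM in V and 69.3 to 1231 CPM in the transplanted lines. Their part in the differences below was not tested.

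Promoter windows of RefSeq (build GRCm38.p6, 250 bases before to 50 after a transcript start) were matched for 9 of the 10 genes. The 6 shown are a selection from the genes whose levels separated the transplanted lines from each other or from the other cells. The last is the window of Col4a2. It also holds the start of Col4a1 on the other strand, but shares 78 bases with the window of Col4a1, which is not shown. Capitals mark the GC box GGGCGG and the CCAAT box CCAAT on either strand.
Lamb1 (chr12:31265043-31265342, + strand): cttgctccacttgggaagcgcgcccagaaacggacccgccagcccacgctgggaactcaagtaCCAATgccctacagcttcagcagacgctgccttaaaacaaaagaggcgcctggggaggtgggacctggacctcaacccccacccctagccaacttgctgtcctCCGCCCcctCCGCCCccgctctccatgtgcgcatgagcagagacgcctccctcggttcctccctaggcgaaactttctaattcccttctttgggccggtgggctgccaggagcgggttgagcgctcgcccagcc
Lamb2 (chr9:108479612-108479911, + strand): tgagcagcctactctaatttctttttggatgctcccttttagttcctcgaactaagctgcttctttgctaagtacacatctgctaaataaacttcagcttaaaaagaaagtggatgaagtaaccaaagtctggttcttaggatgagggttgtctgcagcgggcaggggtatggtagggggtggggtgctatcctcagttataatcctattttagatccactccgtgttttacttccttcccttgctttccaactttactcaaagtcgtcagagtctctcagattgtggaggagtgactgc
Lama5 (chr2:180225810-180226109, - strand): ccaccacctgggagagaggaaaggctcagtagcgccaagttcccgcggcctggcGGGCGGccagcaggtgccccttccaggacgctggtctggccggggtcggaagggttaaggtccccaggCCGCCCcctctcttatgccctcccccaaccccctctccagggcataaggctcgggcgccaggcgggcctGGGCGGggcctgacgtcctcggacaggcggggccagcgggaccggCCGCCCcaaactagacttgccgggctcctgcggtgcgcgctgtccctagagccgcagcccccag
Hpse (chr5:100719667-100719966, - strand): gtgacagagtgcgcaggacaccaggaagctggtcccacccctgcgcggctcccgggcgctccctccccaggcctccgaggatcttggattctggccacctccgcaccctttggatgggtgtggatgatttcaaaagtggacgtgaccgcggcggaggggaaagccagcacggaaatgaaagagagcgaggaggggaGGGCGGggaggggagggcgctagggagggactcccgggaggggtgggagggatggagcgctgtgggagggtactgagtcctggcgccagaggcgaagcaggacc
Hspg2 (chr4:137468553-137468852, + strand): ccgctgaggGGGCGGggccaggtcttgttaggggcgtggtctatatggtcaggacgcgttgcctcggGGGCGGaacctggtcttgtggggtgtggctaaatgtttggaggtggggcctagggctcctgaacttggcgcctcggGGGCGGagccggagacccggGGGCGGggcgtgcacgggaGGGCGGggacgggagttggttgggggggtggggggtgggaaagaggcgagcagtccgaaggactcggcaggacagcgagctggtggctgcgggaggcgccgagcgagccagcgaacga
Col4a2 (chr8:11312555-11312854, + strand): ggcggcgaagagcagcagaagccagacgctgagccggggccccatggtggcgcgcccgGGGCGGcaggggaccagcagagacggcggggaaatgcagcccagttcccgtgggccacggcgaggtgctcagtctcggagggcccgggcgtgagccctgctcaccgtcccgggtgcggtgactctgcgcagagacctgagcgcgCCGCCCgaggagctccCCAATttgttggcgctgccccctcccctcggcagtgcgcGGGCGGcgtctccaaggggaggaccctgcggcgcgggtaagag
GGGCGG stood in 35.7% and CCAAT in 37.4% of the 32851 windows of all genes. Of the windows shown, Hspg2 had 5 GC boxes, Lama5 had 4, Col4a2 had 3 beside 1 CCAAT box, Lamb1 had 2 beside 1 CCAAT box, Hpse had 1, and Lamb2 had neither motif. Agrn, whose levels also separated the lines, is not shown, and its windows held 12 and 2 GC boxes. Also searched on both strands were the E-box CACGTG (7.15% of all windows), TATAAA (13.6%) and the AP-1 motif TGANTCA (7.81%), and no window of these genes held any of them. The matches are letters in a window and show no binding.

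**Figure D1:**
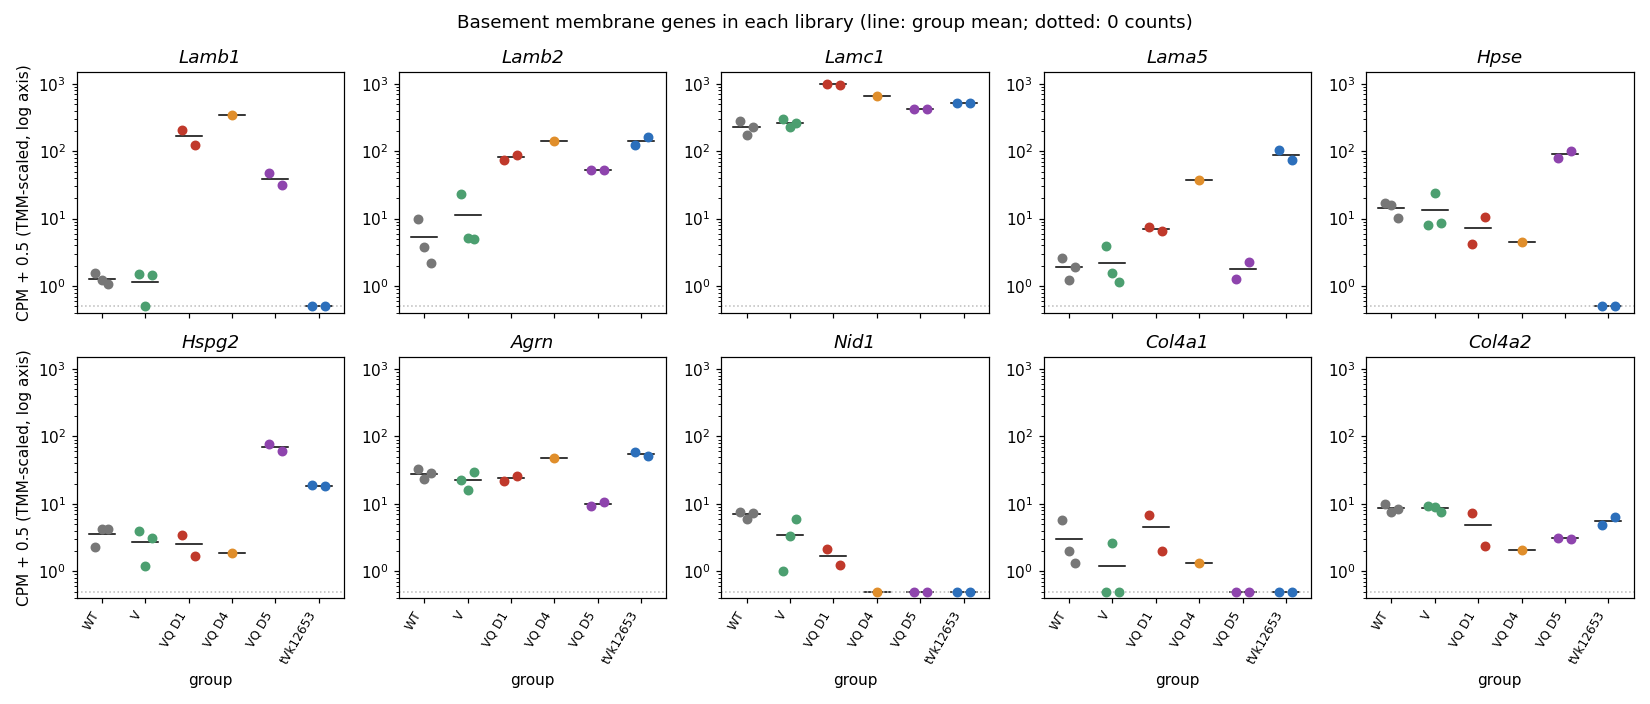
Level of each of the 10 genes in each of the 13 libraries, as CPM + 0.5 on a log axis, with a line at the mean of each group and a dotted line where a library has 0 counts. Lamb1 is high in the 3 VQ lines alone, Hpse and Hspg2 are highest in D5, Lama5 is highest in tVk12653, and the Nid1 and Col4a1 points of D5 and tVk12653 lie on the dotted line.

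Lamc1 and Lamb2 were higher in every transplanted line than in WT and V, while Lamb1 was high in the VQ lines alone and Lama5 mainly in tVk12653 and D4. Lamc1, the gamma-1 chain found in most laminins (chr1:153218922-153332786, GRCm38.p6), was expressed in every library. It stood at 283, 176 and 228 CPM in WT and at 296, 231 and 264 CPM in V. The recipients of D1 had 993 and 960 CPM, D4 had 654 CPM, D5 had 429 and 427 CPM, and tVk12653 had 526 and 511 CPM. All 7 libraries of transplanted lines were above all 6 WT and V libraries, and the lines were apart from one another. Per kilobase of exon Lamc1 had 21.2 to 35.8 CPM in WT and V and 51.6 to 120 CPM in the transplanted lines, above Lamb1, Lamb2 and Lama5 in each library.

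Lamb2, the beta-2 chain known from the glomerulus and the neuromuscular junction (chr9:108479847-108490530), was low in WT at 9.22, 3.34 and 1.71 CPM. V was at 22.8, 4.63 and 4.54 CPM, and its first library alone was above all of WT. In the transplanted lines it was at 73.9 and 86.7 CPM in D1, 139 CPM in D4, 52.8 and 52.3 CPM in D5, and 125 and 161 CPM in tVk12653. WT and V overlapped, and so did D4 and tVk12653, while every transplanted library was above every WT and V library.

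Lamb1, the beta-1 chain of many embryonic and adult laminins (chr12:31265146-31329644), took a different course. It was at 1.06, 0.743 and 0.569 CPM in WT and at 0.993, 0 and 0.973 CPM in V, which is 0 to 3 reads a library. The D1 recipients reached 208 and 124 CPM, the D4 recipient 346 CPM and the D5 recipients 46.2 and 31.1 CPM, with the lines apart from one another. Both tVk12653 libraries had 0 reads. Against the floor of 3 counts per library in tVk12653, Lamb1 was at least 186-fold higher in D1, at least 388-fold higher in D4 and at least 43.4-fold higher in D5. In the log2 fold change of VQ over WT, which chose this gene, it stood at 7.82 ± 0.97 (SE, 3 lines against 3 libraries).

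Lama5, the alpha-5 chain of the laminins that surround marrow sinusoids (chr2:180176373-180225904), was the 1 alpha chain with more than a few reads. WT was at 2.13, 0.743 and 1.42 CPM and V at 3.47, 1.07 and 0.649 CPM. D1 was at 7.01 and 6.08 CPM, D4 at 37.2 CPM, D5 at 0.792 and 1.79 CPM, and tVk12653 at 102 and 72.9 CPM. D5 lay within the range of WT and V, whereas D1, D4 and tVk12653 followed above it in that order with no overlap. The other 4 alpha genes (Lama1, Lama2, Lama3 and Lama4) had 0 to 5 reads in any library.

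Per kilobase of exon, the chains could be set beside each other. Of the summed level of Lamb1 and Lamb2, Lamb1 made up 63.3% and 46.8% (D1), 60.4% (D4), 34.9% and 26.7% (D5) and 0% (tVk12653). The summed beta level was 0.0123 to 0.108 of the Lamc1 level in WT and V and 0.227 to 0.731 of it in the transplanted lines. The summed alpha level was at most 0.142 of Lamc1, in tVk12653 replicate 1, and 0.0420 in D4, with all other libraries but the second of tVk12653 (0.104) at 0.0119 or less. In RNA terms the gamma chain exceeded its partners in every library.

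**Figure D2:**
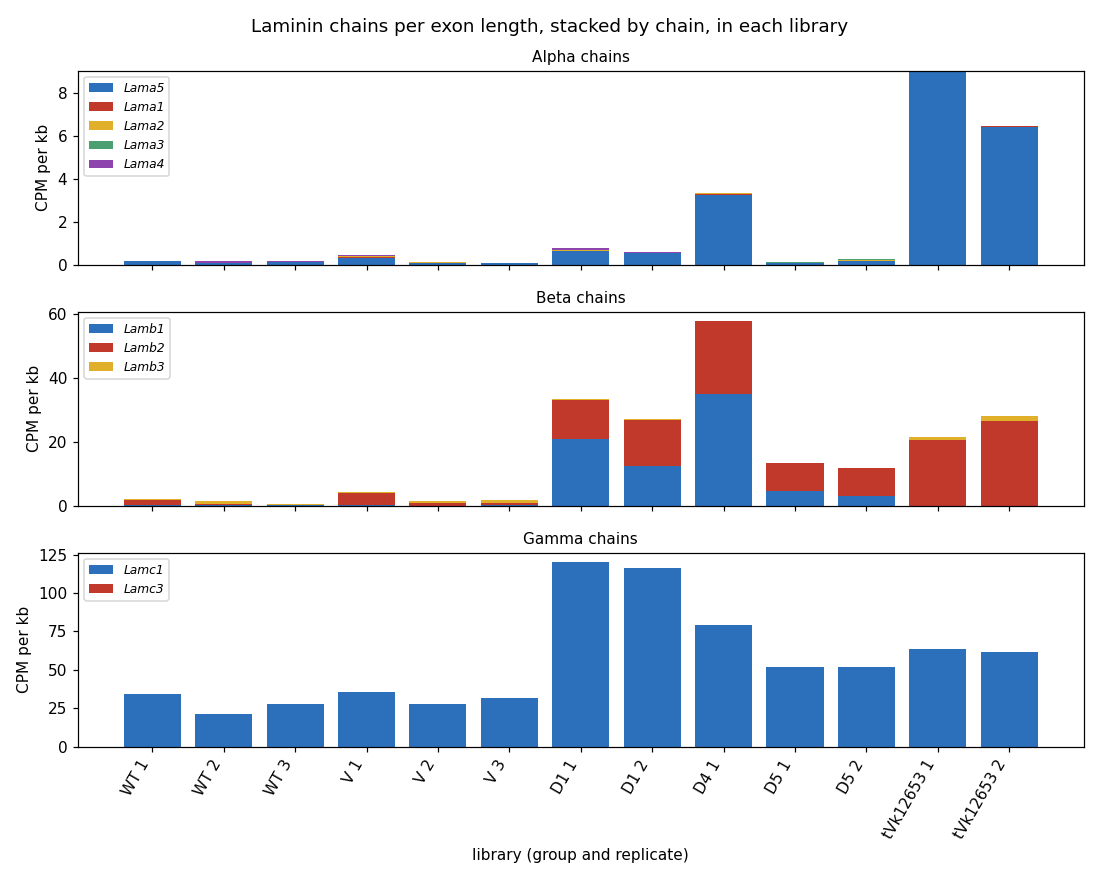
Laminin chain RNA in each library as CPM per kilobase of exon, stacked by chain for the chains described, with alpha, beta and gamma chains in separate panels whose scales differ. The beta bars hold Lamb1 in the VQ lines and none in tVk12653, Lamc1 fills nearly all of each gamma bar, and Lama5 fills nearly all of the alpha bars of D4 and tVk12653.

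Heparanase (Hpse, chr5:100679484-100719716) was read in WT and V, had no read in tVk12653 and was highest in D5. WT had 16.7, 15.2 and 9.67 CPM and V had 7.44, 23.5 and 8.11 CPM. D1 was at 3.77 and 9.98 CPM and D4 at 4.07 CPM, while D5 was at 78.7 and 101 CPM. Both tVk12653 libraries had 0 reads. WT, V and D1 overlapped, D5 was above all other libraries, and D4 lay within the range of D1.

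Perlecan (Hspg2, chr4:137468751-137570630), the large heparan sulphate proteoglycan of basement membranes, was also highest in D5. It was at 1.77, 3.72 and 3.70 CPM in WT, 3.47, 0.712 and 2.595 CPM in V, 2.97 and 1.19 CPM in D1 and 1.40 CPM in D4. D5 had 76.1 and 61.0 CPM and tVk12653 had 18.3 and 17.8 CPM. Both were above every other library and apart from each other. D5 thus held the highest RNA level both of the proteoglycan and of the enzyme that cuts its chains, while tVk12653 held the proteoglycan with no read of the enzyme.

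Agrin (Agrn, chr4:156165290-156197533), the proteoglycan that links laminin to dystroglycan, was expressed in every group. It was at 31.9, 22.7 and 28.2 CPM in WT, 21.8, 15.7 and 29.2 CPM in V and 21.6 and 25.6 CPM in D1. D5 was below all of these at 8.72 and 10.2 CPM, and D4 (47.4 CPM) and tVk12653 (59.2 and 51.5 CPM) were above all of them.

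Nid1, Col4a1 and Col4a2 were at 9.57 CPM or less in every library. Nid1, which joins laminin to collagen IV (chr13:13437602-13512275), was at 7.09, 5.57 and 6.83 CPM in WT and 0.496, 2.85 and 5.51 CPM in V. D1 had 1.62 and 0.760 CPM, and all 5 libraries of D4, D5 and tVk12653 had 0 reads. WT was above all other groups, and V and D1 overlapped.

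Col4a1 (chr8:11198423-11312889) and Col4a2 (chr8:11312805-11449287) encode the chains of the most widespread collagen IV trimer and lie head to head, with spans that overlap by 85 bases. The strand setting of the counting is not given in the sources used here, so reads at their shared start cannot be told apart. Col4a1 was at 5.32, 1.49 and 0.853 CPM in WT, 0, 2.14 and 0 CPM in V, 6.47 and 1.52 CPM in D1 and 0.841 CPM in D4, and had 0 reads in D5 and tVk12653. Col4a2 was at 9.57, 7.06 and 7.96 CPM in WT and 8.93, 8.54 and 7.14 CPM in V. It was at 6.74 and 1.85 CPM in D1, 1.54 CPM in D4, 2.64 and 2.55 CPM in D5 and 4.39 and 5.81 CPM in tVk12653, below WT and V in all 7 libraries.

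Stromal and endothelial cells are rich sources of these matrix genes, so their markers are given beside the levels. The 11 stromal and osteoblast markers summed to 25.0 to 67.6 CPM in WT, 6.95 to 17.5 CPM in V, 10.5 to 43.7 CPM in D1, 34.1 CPM in D4, 4.75 to 5.87 CPM in D5 and 9.95 to 10.2 CPM in tVk12653. Of the D4 sum, 27.2 CPM was Lepr, and Col1a1, Pdgfra, Lum, Bglap and Ibsp were at 0 there. The 10 endothelial markers summed to 69.8 to 101 CPM in WT, 60.9 to 106 CPM in V, 24.7 CPM in D4, 40.8 to 50.2 CPM in D5 and 11.6 to 14.2 CPM in tVk12653, and Cdh5, the endothelial cadherin, was at 0 in D5 and tVk12653. In D1 they summed to 408 and 150 CPM, of which Pecam1, also a leukocyte gene, was 402 and 147 CPM, and Cdh5 was at 1.35 and 0.760 CPM. Nid1 and Col4a2 were low in the libraries of the transplanted lines, in which Cdh5 was low or at 0, but they did not follow Cdh5 closely. V replicate 1 had 0.496 CPM of Nid1 and 3.97 CPM of Cdh5. Col4a2 was at 4.39 and 5.81 CPM in tVk12653, where Cdh5 was at 0, and at 1.54 CPM in D4, where Cdh5 was at 0.701 CPM. Summed neutrophil markers were also lower in the transplanted lines than in WT and V. Egfl7, another endothelial marker, did not follow Cdh5. It was at 0.372 to 3.55 CPM in WT, 0 to 1.49 CPM in V and 0.109 to 0.270 CPM in D1. D4 had 2.52 CPM of Egfl7, D5 5.36 to 6.07 CPM and tVk12653 0.231 to 7.26 CPM. The part of endothelial or stromal RNA in the level of any of the 10 genes was not tested. Within D1, the first library held more Col4a1, Col4a2 and Nid1 than the second, and also more Cxcl12, a stromal chemokine, at 21.6 against 4.78 CPM. In bulk RNA, fewer cells of a type and less RNA per cell cannot be told apart.

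VQ and WT are the groups between which Lamb1 was chosen, so their non-overlapping genes are counted as a description from which nothing is read. All 5 VQ libraries were above all 3 WT libraries for 3 of 10 genes (Lamb1, Lamb2 and Lamc1), beside 17.5% of all 11933 genes tested, and below them for 2 (Nid1 and Col4a2), beside 21.2%. The fitted log2 differences of VQ over WT were 4.33 ± 0.77 for Lamb2, 1.64 ± 0.28 for Lamc1 and -1.64 ± 0.41 for Col4a2 (SE, 3 lines against 3 libraries). VQ was above V for the same 3 laminin genes (17.0% of all genes) and below it for Col4a2 (18.9%). The comparisons with WT and with V share the VQ libraries.

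Set against tVk12653, the VQ libraries were all higher for Lamb1 and Hpse, 2 of 10 (16.3% of all genes), and all lower for Lama5 and Agrn, 2 of 10 (16.8%). Of tVk12653 and WT, 5 genes were higher in both tVk12653 libraries (Lamb2, Lamc1, Lama5, Hspg2 and Agrn), beside 31.9% of all genes, and 5 were lower (Lamb1, Hpse, Nid1, Col4a1 and Col4a2), beside 35.2%. When the 7 libraries of transplanted lines were set against the 6 of WT and V, Lamb2 and Lamc1 were higher without overlap (8.69% of all genes) and Col4a2 was lower (11.7%).

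V and WT differ by the MYC transgene and Cre, and neither was transplanted. None of the 10 genes was called between them. With edgeR's quasi-likelihood test and Benjamini-Hochberg adjustment, 0 of all genes tested did (0%), 628 had an unadjusted p under 0.05, and DESeq2 called 15 higher and 30 lower, none of them one of the 10. The largest fitted difference among genes read in all libraries was Lamb2, 1.15 ± 0.77 on the log2 scale (SE, n = 3 and 3, adjusted p = 1 in edgeR). For Lamc1 it was 0.22 ± 0.28 (adjusted p = 1). Same-numbered WT and V libraries varied together, and with the number as a replicate block 0 of the 10 passed either, in fits that called 43 higher and 48 lower genes (all libraries) or 138 and 341 (WT and V alone).

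The tVk12653 line set against V compares a transplantable tumour with the non-transplanted MYC mice, and it was tested because it shares no library with the contrast that chose Lamb1. Which results led to the choice of the other genes is not known, and this comparison may be among them. The adjusted p-values here and in D1 against D5 may therefore not be independent of that choice. Lama5, Lamb2 and Lamc1 were higher in tVk12653 and heparanase was lower. The test called 3 of 10 genes higher, beside 10.3% of all 11933 genes, and 1 lower, beside 12.9%. Lama5 rose by 5.74 ± 1.20 on the log2 scale (SE, n = 2 and 3, edgeR adjusted p = 0.00985) and Lamb2 by 3.78 ± 0.76 (adjusted p = 0.00879). Without V replicate 1, the V library with the most of both, they rose by 6.63 and 4.95. Lamc1 rose by 0.97 ± 0.30 (adjusted p = 0.0453). Hpse, at 0 in tVk12653, was at least 14.6-fold lower than in V (adjusted p = 0.0422).

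Not called were Hspg2 at 3.01 ± 1.49 (adjusted p = 0.169), Agrn at 1.31 ± 0.51 (adjusted p = 0.0915) and Col4a2 at -0.70 ± 0.46 (adjusted p = 0.300) in the same edgeR fit. Nid1 (adjusted p = 0.0728) and Col4a1 (0.318) were at 0 in tVk12653. So was Lamb1, which had 0 to 3 reads a library in V and passed the filter on low counts through the VQ libraries in which it is high, so its difference is given no test here. Nid1 and Col4a1 too passed the filter only with libraries of the other groups. That fit takes its spread from all 4 arms, with the VQ lines as 1 arm. With 1 mean for each of the 6 groups, the edgeR adjusted p was 1.05e-04 for Hspg2, 5.26e-04 for Agrn and 0.00664 for Nid1. The call of Lamb2 was lost without tVk12653 replicate 2 (adjusted p = 0.0589). That of Lamc1 was lost when WT replicate 1, WT replicate 3 or any 1 V or tVk12653 library was left out (0.0531 to 0.164), and that of Hpse without any 1 WT, V or tVk12653 library or D1 replicate 2 (0.0548 to 0.171) and with no filter on low counts (0.121). Lama5 passed in every fit tried.

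**Figure D3:**
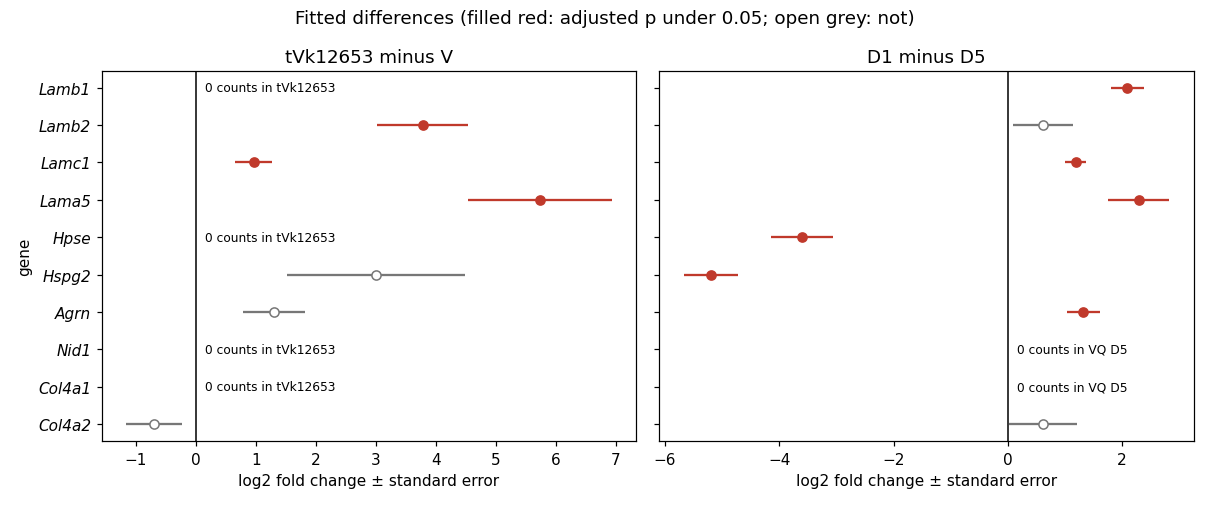
Fitted log2 fold change with its standard error for each gene, tVk12653 minus V in the left panel and D1 minus D5 in the right panel, with separate scales. Filled red points have an adjusted p under 0.05, open grey points do not, and genes with 0 counts in one group carry a note in place of a point, and Lamb1 was chosen from libraries that include D1 and D5; the bars of Lama5 at 5.74 and Hspg2 at -5.20 lie farthest from 0.

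D1 and D5 have the same labelled genotype, and their comparison asks how far lines of 1 model differ. The laminin chains Lamc1 and Lama5 and agrin were higher in D1, while heparanase and perlecan were higher in D5. In a fit of all 13 libraries with 12835 genes tested, Lamc1, Lama5, Agrn, Nid1 and Col4a1 were called higher in D1, beside 20.0% of all genes. Hspg2 and Hpse were called lower, beside 21.7%. Lamb1 also passed, but D1 and D5 are among the VQ libraries that chose it. Its call is therefore not counted, and its log2 difference of 2.09 ± 0.29 (SE, n = 2 and 2) is a description. Lamc1 was higher by 1.19 ± 0.18 on the log2 scale (edgeR adjusted p = 1.27e-04). Lama5 differed by 2.29 ± 0.53 (adjusted p = 0.00326) and Agrn by 1.32 ± 0.29 (adjusted p = 0.00193). Without D5 replicate 2 the Lama5 difference was 2.97.

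In the other direction, Hspg2 stood at -5.20 ± 0.47 (edgeR adjusted p = 1.15e-06) and Hpse at -3.61 ± 0.55 (adjusted p = 3.99e-04), both higher in D5. Without D1 replicate 2 they stood at -4.51 and -4.55, and without D1 replicate 1 Hspg2 stood at -5.81. Lamb2 (0.61 ± 0.53, adjusted p = 0.388) and Col4a2 (0.61 ± 0.59, adjusted p = 0.430) were not called. Lamb2 was therefore the laminin chain of the 4 for which no difference between these lines was called, although it passed without the filter on low counts (adjusted p = 0.0169). Col4a1 was at least 5.13-fold higher in D1 (adjusted p = 0.0278) and Nid1 at least 1.53-fold higher (adjusted p = 0.0390), both at 0 in D5. Those calls rest on 38 and 13 reads in D1, and both were lost without D1 replicate 1 (adjusted p = 0.114 and 0.102) or without either D5 library. Nid1 also missed the threshold with the replicate block (0.0517) and without WT replicate 1, WT replicate 3 or V replicate 2 (0.0503 to 0.0525). Without D1 replicate 1 the Col4a2 difference turned to -0.49.

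The other genes of the pathway were followed in 7 lists of matrix and heparan sulphate genes. Medians of a list are of fitted log2 differences and are the same with genes at 0 in a group set at their bound. In V against WT none of their tested genes was called. Of the other laminin chains followed, Lamb3, a beta chain of skin laminin, had enough counts to test. It was called higher in D1 than in D5, at 2.97 and 1.74 CPM against 0.264 and 0 CPM (edgeR adjusted p = 0.0140), which is 1 read in D5. The ratio was 16.1, with a 95% exact binomial interval of 2.65 to 659. It was not called in tVk12653 against V. The median over all genes was -0.04 in tVk12653 against V and 0.05 in D1 against D5.

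Of 20 other basement membrane components, 3 were tested between tVk12653 and V, with 1 called higher (10.3% of all genes) and 1 lower (12.9%), and 8 between D1 and D5. Smoc2, a secreted calcium-binding matrix protein, was at 574 and 656 CPM in tVk12653 and at 0.973 to 9.93 CPM in V, a log2 difference of 6.96 ± 1.03 (edgeR adjusted p = 0.00212). It was at 11.1 CPM or less in all other libraries. Fras1, a matrix protein of skin, was lower in tVk12653, at 0 reads against 2.48 to 4.22 CPM (adjusted p = 0.0126). In D1 against D5, 2 were higher (Smoc1 and Sparc), beside 20.0% of all genes, and 2 lower (Nid2 and Fbln1), beside 21.7%. Smoc1 and Sparc passed the filter on low counts only through D1, and Fbln1 only through D5. Their calls are therefore descriptions and are not read against those shares. Nid2, the second nidogen, was at 243 and 219 CPM in D5 and at 4.25 CPM or less in all other libraries (-6.17 ± 0.36, adjusted p = 2.17e-08). D5 thus had Nid2 RNA where it had no read of Nid1. The list's median log2 difference in D1 against D5 was 0.62. In tVk12653 against V it was -1.75, which is the value of Nid2 alone (SE 3.15, edgeR adjusted p = 0.721), the middle of the 3 genes tested.

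Receptors for laminin, collagen IV and agrin were called in both comparisons. Of 12 tested, 0 were lower in tVk12653 against V (12.9% of all genes) and 3 were higher (10.3% of all genes), namely the collagen receptor kinase Ddr1, the laminin alpha-5 receptor Bcam and dystroglycan (Dag1). Their median log2 difference was 0.80, beside -0.04 over all genes. Bcam was at 64.5 and 115 CPM in tVk12653 and at 0 to 1.42 CPM in V (7.10 ± 1.72, edgeR adjusted p = 0.0177). In D1 against D5, 5 of 12 were higher and 4 lower (20.0% and 21.7% of all genes), with a median of 1.00 beside 0.05 over all genes. Bcam was at 73.6 and 75.0 CPM in D1 and 0.528 and 0.766 CPM in D5 (6.77 ± 0.51, adjusted p = 2.29e-07), and Itga3, the alpha chain of a laminin integrin, was also higher in D1. Itga1, the alpha chain of a collagen integrin, was higher in D5, at 281 and 217 CPM against 8.09 and 3.69 CPM. Bcam and its ligand Lama5 were both higher in tVk12653 than in V and in D1 than in D5, while D4 had 37.2 CPM of Lama5 and 6.45 CPM of Bcam.

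Proteoglycan core proteins can carry the heparan sulphate that heparanase cuts, and read counts of a gene do not show which chains its protein carried. In tVk12653 against V, 0 of 7 were higher (10.3% of all genes) and 2 lower (12.9%), Cd44 (-1.13 ± 0.28, edgeR adjusted p = 0.0184) and Srgn, the serglycin of secretory granules (-5.43 ± 1.11, adjusted p = 0.00907). Srgn is also abundant in myeloid cells, and summed neutrophil markers were 89.3 to 153 CPM in tVk12653 and 1814 to 3621 CPM in V. Their part in the Srgn difference was not tested. In D1 against D5, 4 of 8 were higher (20.0% of all genes) and 1 lower (21.7%). Sdc1, which encodes the sorted protein CD138, was at 842 and 928 CPM in D1 and 364 and 421 CPM in D5 (1.17 ± 0.27, adjusted p = 0.00435). The list's median log2 difference was -0.80 in tVk12653 against V and 1.12 in D1 against D5. Gpc1 was at 15.6 and 18.0 CPM against 0 and 0.255 CPM, and Sdc4 was lower in D1, at 2.97 and 8.57 CPM against 242 and 94.2 CPM.

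Enzymes of heparan sulphate synthesis had a median log2 difference of -0.54 in tVk12653 against V and 0.21 in D1 against D5. Of 23 tested in tVk12653 against V, 2 were higher, among them Ndst1, a sulphotransferase (1.67 ± 0.25, edgeR adjusted p = 0.00224), and 4 were lower, among them Xylt1, Xylt2 and Extl3, beside 10.3% and 12.9% of all genes. Xylt1, which adds the first sugar of the chain, was at 0 and 0.231 CPM in tVk12653 and 64.4 to 90.2 CPM in V. Of 24 tested in D1 against D5, 5 were higher and 3 lower, beside 20.0% and 21.7% of all genes. Ext1, a subunit of the polymerase that extends the chain, was at 0 and 0.217 CPM in D1, which is 0 and 2 reads, and at 101 and 72.0 CPM in D5 (adjusted p = 1.28e-08). The ratio of D5 to D1 was 558, with a 95% exact binomial interval of 154 to 4615 that covers counting error only. The other 9 libraries outside D1 and D5 had 10.9 to 38.3 CPM of Ext1. Hs6st1, Xylt1 and Hs3st3b1 were higher in D1, and so was Ndst3, a further sulphotransferase that was named after its values were seen. Ndst3 had 159 and 187 CPM in D1 and 5.96 CPM or less in every other library (adjusted p = 7.38e-05 against D5).

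Collagen folding and crosslinking genes included 4 of 14 higher (10.3% of all genes) and 0 lower (12.9%) in tVk12653 against V, with a median log2 difference of 1.05 beside -0.04 over all genes. They were Fkbp10, P4ha2, P4ha3 and Fkbp14, prolyl isomerases and prolyl hydroxylases of the endoplasmic reticulum. Fkbp10 was at 87.7 and 96.5 CPM in tVk12653 and 1.49 to 2.27 CPM in V (5.59 ± 0.65, edgeR adjusted p = 7.04e-04). In D1 against D5, 4 of 14 were higher and 6 lower, beside 20.0% and 21.7% of all genes, with a median of 0.11. Colgalt1, a collagen galactosyltransferase, was lower in D1 by -2.38 ± 0.17 on the log2 scale (adjusted p = 1.46e-07), and Crtap, P4ha1 and Mia3 were also lower. Among the 4 higher in D1 were Fkbp10 (1.45 ± 0.34) and P4ha3, at 4.58 and 12.4 CPM in D1 against 0 and 0.255 CPM in D5. The collagens of the basement membrane themselves, Col4a1 and Col4a2, were at 6.47 CPM or less and 6.74 CPM or less in these lines.

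Proteases of the matrix and their inhibitors were called in both directions, with a median log2 difference of 0.08 in tVk12653 against V and 1.48 in D1 against D5. In tVk12653 against V, 4 of 14 were higher, among them cathepsin L (Ctsl, 1.79 ± 0.20, edgeR adjusted p = 6.08e-04), Adam9 and Bmp1, and 4 were lower, among them Mmp15, beside 10.3% and 12.9% of all genes. Cathepsin L is the protease that activates heparanase, and it was at 138 and 155 CPM in the line with no read of Hpse. In D1 against D5, 6 of 15 were higher, among them cathepsin B (Ctsb), Mmp14 and Mmp15, and 3 were lower, among them Adam9, beside 20.0% and 21.7% of all genes. Mmp14, a membrane-bound metalloprotease, was at 25.1 and 20.9 CPM in D1 and 0.264 and 0 CPM in D5 (adjusted p = 2.77e-05).

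**Figure D4:**
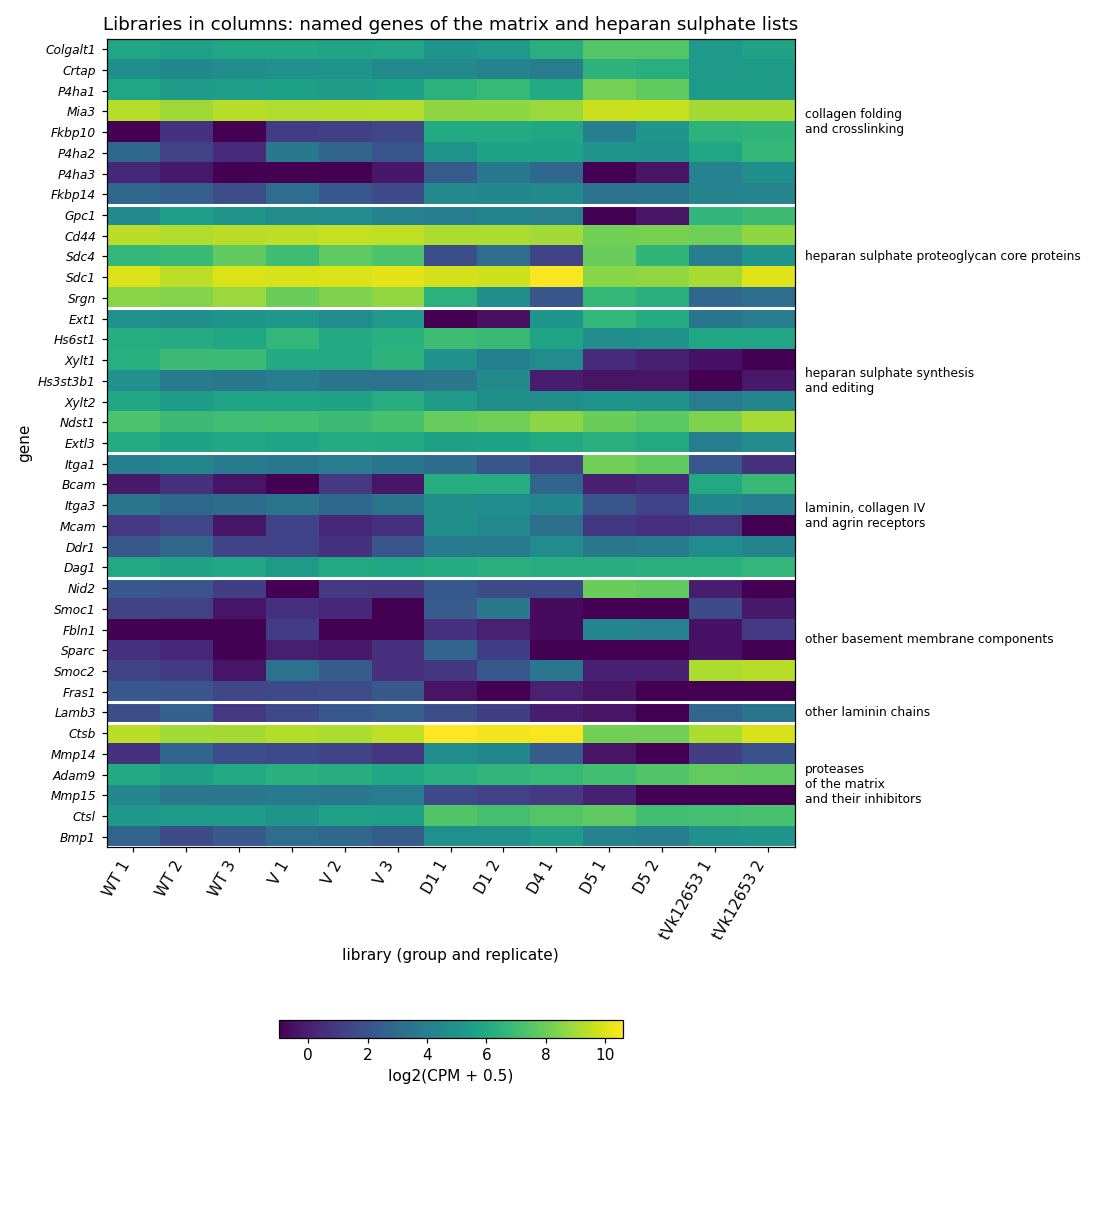
Levels of the named genes of the 7 lists as log2(CPM + 0.5) in each of the 13 libraries, with libraries in columns, genes in rows and lists separated by white lines. Smoc2 is bright in tVk12653 alone, Nid2 and Itga1 in D5 alone, Bcam in D1 and tVk12653, and Ext1 is dark in both D1 columns.

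For the 3 laminin chains with the highest mean level, the genes with the most similar pattern were sought by Pearson correlation of log2(CPM + 0.5) over the 13 libraries, which share recipients of a line and are not independent. Lamc1 was most like St14 (0.977), Src (0.969) and Rexo2 (0.963). For Lamb1 they were Stc2 (0.976), Ptpn9 and Fyttd1 (both 0.940). Stc2 was at 137 and 128 CPM in D1, 169 CPM in D4, 62.9 and 87.5 CPM in D5 and 0.231 and 0 CPM in tVk12653, with 3.55 CPM or less in WT and V. Lamb2 was most like P4ha2 (0.983), a collagen prolyl hydroxylase, Spats2 (0.977) and Antxr1 (0.973). Among the chains themselves the coefficient was 0.858 for Lamb2 and Lamc1, 0.721 for Lamb1 and Lamc1 and 0.511 for Lamb1 and Lamb2.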

How the data were processed

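The RNeasy Micro Kit was used to extract RNA from the 50000 cells of each library, and a stranded SMARTer total RNA kit (Pico Input) to make the libraries, per the labels' protocols. STAR 2.6.1d and build GRCm38.p6 are named in the submitters' processing notes. How reads were counted (tool, annotation, strand, multiple alignments) is not given in the sources used here. Per its values and header, the deposited file gives whole read counts by gene symbol, which the authors did not normalize.

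Scaling was by TMM and low genes were removed by filterByExpr (at least 10 counts, total of at least 15). Tests were edgeR 4.0.16 robust quasi-likelihood tests in R 4.3.3, adjusted by Benjamini-Hochberg across every gene tested, with 0.05 as the threshold. Arms were compared over 11 units in 4 arms (11933 genes), each VQ line being 1 unit with its recipients summed. For D1 against D5 the model held all 13 libraries and 6 group means (12835 genes). The common biological coefficient of variation came to 0.409 for arms and 0.195 for groups. CPM of a library uses the TMM factors of all 13, and CPM per kilobase divides by the union of exons. The labels give the word recipient and, in the sample descriptions, a different number for each V, D1, D5 and tVk12653 library. They do not say whether these numbers are those of separate mice. The p-values thus measure the spread between these libraries, which may be technical. The chi-square of counts per degree of freedom was 4.97 to 14.4 between libraries of a group, more than repeat sequencing of 1 library would give. It does not show whether the libraries of a group came from separate mice. Floors of 3 counts and binomial intervals cover counting error only.

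The members and the lists were chosen with earlier results of these data known. Named were all 10 genes, up to 4 called genes per list and tested comparison by smallest adjusted p, the most abundant marker genes, and the 3 genes most like each of the 3 most abundant members. Same-numbered WT and V libraries deviated from their group means together (r = 0.138 to 0.222, against -0.175 to -0.0482 for different numbers). The numbers were therefore taken to pair them, which is an assumption. Same numbers were also above different numbers for tVk12653 with V, D1 and D5, with r at most 0.0604. Since deviations are from group means, a positive r for same numbers makes those of different numbers negative, which is no separate evidence. In simulations with 100 genes at each size, drawn from genes with a mean count over 20, the share of 2-fold and 4-fold changes recovered was 2% and 23% in tVk12653 against V, 1% and 48% in V against WT and 34% and 99% in D1 against D5. Alternatives were RLE factors, total count scaling for levels, no filter, a minimum count of 30, DESeq2 1.42.0, other sets of samples in the model, a replicate block and each library left out. Leaving out the pair of WT replicate 2 and D1 replicate 1 was chosen after seeing the data. Results for 1 gene are not reported here.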

Additional observations from a re-analysis of the deposited data

Results flagged for a closer look

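Between D1 and D5, lines with the same labelled genotype, Lamc1, Lama5, Agrn, Nid1, Col4a1, Hpse and Hspg2 differed in edgeR's test across all genes (adjusted p under 0.05). Of all 12835 genes tested 5351 did, and the values are those of 2 recipients of each line. On the log2 scale, D1 minus D5, the difference was 2.09 for Lamb1, 1.19 for Lamc1, 2.29 for Lama5 and 1.32 for Agrn, which were higher in D1. It was -3.61 for Hpse and -5.20 for Hspg2, which were higher in D5. Nid1 and Col4a1 had 0 reads in D5 and were at least 1.53-fold and at least 5.13-fold higher in D1, and both calls were lost without D1 replicate 1 or either D5 library. Lamb1 was chosen from libraries that include these, so its value is a description and its call is not counted. No group held 4 or more libraries, so single libraries were not screened for values apart from their group.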

How the results depend on the processing

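Lama5 in tVk12653 against V, and Lamc1, Lama5, Hpse, Hspg2 and Agrn in D1 against D5, kept their direction and their call under every alternative run. The count of the 10 genes called in tVk12653 against V was 4, and it was 7 with a mean for each of 6 groups and 8, Lamb1 included, with the replicate block. Leaving out 1 library gave 1 (without tVk12653 replicate 2) to 6 (without D4) in tVk12653 against V, 6 to 8 in D1 against D5 (8 with all libraries) and 0 to 0 in V against WT. The cause of these shifts was not tested, and the counts in D1 against D5 include Lamb1, whose difference there is a description. Over all genes, tVk12653 against V had 2771 calls, 5246 with only these groups in the fit, 5727 with a mean per group, 5381 with the block and 662 to 3473 with 1 library left out, and D1 against D5 had 5351 and 3901 to 5702 with 1 left out. V against WT had 0, and 3 with no filter, 2 with only these groups, 24 with a mean per group, 45 with DESeq2, 91 with the block and 479 with the block in WT and V alone. The block changed no call of the 10 in V against WT. Signs turned for values near 0 or with few reads. In V against WT, Col4a2 (0.01) went to -0.0090 with RLE factors, -0.013 with DESeq2 and -0.00065 with a mean per group. Without both WT replicate 2 and D1 replicate 1, Lama5 went to -0.12, Hpse to 0.0083 and Col4a2 to -0.083 in V against WT, and Col4a2 to -0.48 in D1 against D5. With 1 library left out, the ranges in V against WT were -0.82 to 0.34 for Lamb1, -0.019 to 2.06 for Lamb2, -0.73 to 0.60 for Lama5, -0.81 to 0.20 for Hpse and -0.083 to 0.14 for Col4a2. Col4a2 ran from -0.49 to 1.37 in D1 against D5, and the fitted Col4a1 value from -5.48 to 0 in tVk12653 against V, since V without replicate 2 also had no reads. Low depth limits Nid1, Col4a1 and Lamb1 in WT and V.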
